A study of Mus musculus with 6 samples.

Results

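The guanylate-binding protein (Gbp) genes of the mouse were followed across 6 Affymetrix Mouse Gene 2.0 ST arrays. Every probe set to which the array annotation gives a Gbp symbol was taken, which were 11 of the 41345 probe sets measured and named 11 of 23981 annotated genes. They cover Gbp2b and Gbp3 to Gbp11 with 1 probe set each, and 1 further probe set that carries the names Gbp2 and Gbp2b together, so that its signal cannot be given to either gene alone. A cluster on chromosome 3 holds 5 of these probe sets and a cluster on chromosome 5 the other 6. The family was picked for description with the icilin effect on these arrays already known, Gbp10 having stood among the genes with the largest rise, so the family's values and calls are given as a description and no p-value is attached to them.

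The arrays were made from CD4+ T cells purified from spleens of female wild-type C57BL/6 mice about 8 weeks old. All cells were stimulated in culture for 24 h with antibodies to CD3 and CD28 (10 µg/mL each), which trigger the T cell receptor together with a costimulatory signal. For a further 24 h they were kept with 100 µM icilin, a synthetic cooling compound that activates the cation channels TRPM8 and TRPA1 (3 arrays), or with its solvent dimethyl sulfoxide, here called vehicle (3 arrays). Both groups came from the same 3 mice and share the stimulation and the solvent. The small number of arrays limits precision. Array medians lay between 4.24 and 4.30 on the log2 scale, and over all probe sets the log2 fold change had a median of 0.01.

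Gbp proteins are large GTPases of the dynamin superfamily. Interferon gamma induces them strongly in many cell types, in part through interferon regulatory factors such as IRF1. They gather on the membranes of vacuoles that hold intracellular parasites and on bacteria, help to break these open, and promote inflammasome signalling by the released bacterial products. Most of this is known from macrophages and fibroblasts, and less is known of their role in T cells.

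Interferon-responsive promoters are commonly recognised by 2 DNA elements. Promoters are shown for the Gbp genes that had an entry in the promoter table, all of them on chromosome 3. Of the 5 probe sets there, 4 read higher with icilin, while that of Gbp2b alone did not. The RefSeq promoter table (build GRCm38.p6, 250 bases before to 50 bases after an annotated start) held 5 of the 11 named Gbp genes. Gbp4, Gbp6, Gbp8, Gbp9, Gbp10 and Gbp11 had no entry. Capitals mark matches to the core of the interferon-stimulated response element (ISRE; GAAA, any 2 bases, GAAA, on either strand) and to the gamma-activated site (GAS; TTCNNNGAA, which reads the same on both strands). The sequences run 5′ to 3′ along the gene's own strand.
Gbp5 (chr3:142496684-142496983, plus strand): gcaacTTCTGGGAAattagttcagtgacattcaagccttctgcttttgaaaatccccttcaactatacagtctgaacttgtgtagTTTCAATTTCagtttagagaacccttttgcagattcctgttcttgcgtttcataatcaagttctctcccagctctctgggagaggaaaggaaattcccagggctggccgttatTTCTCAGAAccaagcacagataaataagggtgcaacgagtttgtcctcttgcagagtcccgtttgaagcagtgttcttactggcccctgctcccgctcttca
Gbp7 (chr3:142530086-142530385, plus strand): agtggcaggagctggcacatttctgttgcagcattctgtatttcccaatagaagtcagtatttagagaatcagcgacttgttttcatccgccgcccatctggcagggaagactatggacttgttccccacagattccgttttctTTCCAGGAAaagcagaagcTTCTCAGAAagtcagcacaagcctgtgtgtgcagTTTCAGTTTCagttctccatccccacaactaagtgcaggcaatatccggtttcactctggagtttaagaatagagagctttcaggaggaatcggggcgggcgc
Gbp3 (chr3:142559794-142560093, plus strand): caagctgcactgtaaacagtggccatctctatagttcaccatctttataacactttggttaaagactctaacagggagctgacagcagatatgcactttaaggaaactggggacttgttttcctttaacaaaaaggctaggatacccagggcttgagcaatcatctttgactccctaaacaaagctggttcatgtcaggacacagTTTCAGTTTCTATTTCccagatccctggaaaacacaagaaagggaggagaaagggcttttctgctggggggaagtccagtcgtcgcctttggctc
Gbp2b (chr3:142594597-142594896, plus strand): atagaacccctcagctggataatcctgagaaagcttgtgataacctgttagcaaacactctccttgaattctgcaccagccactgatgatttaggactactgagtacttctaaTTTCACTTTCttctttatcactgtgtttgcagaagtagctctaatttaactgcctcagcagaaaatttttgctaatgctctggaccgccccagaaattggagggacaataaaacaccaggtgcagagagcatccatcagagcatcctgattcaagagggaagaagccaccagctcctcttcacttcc
Gbp2 (chr3:142620413-142620712, plus strand): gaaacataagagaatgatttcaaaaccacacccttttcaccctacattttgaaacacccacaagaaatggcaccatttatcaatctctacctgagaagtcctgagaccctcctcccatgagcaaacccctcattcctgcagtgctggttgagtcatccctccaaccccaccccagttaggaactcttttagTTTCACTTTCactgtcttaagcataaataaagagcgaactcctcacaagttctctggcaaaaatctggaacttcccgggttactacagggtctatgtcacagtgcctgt

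Each of the 5 genes had an ISRE core at an annotated start, against 3.99% of the 27025 genes in the table. By promoter it was 5 of 6, against 3.44% of 32851. In Gbp2 it began 59 bases before the start, in Gbp7 53 bases and in Gbp2b 137 bases before it. Gbp5 had its ISRE core farther upstream, beginning 165 bases before the start. Gbp3 had 2 overlapping ISRE cores, beginning 45 and 39 bases before its first annotated start, and neither motif at its second start. A GAS was found in 2 of the 5 genes, Gbp5 and Gbp7, with 2 matches in each, against 9.55% of all genes. By promoter it was 2 of 6, against 8.30%. In Gbp7 both GAS matches, beginning 106 and 87 bases before the start, lay upstream of the ISRE core. Gbp2b, the gene whose own probe set was not higher with icilin, thus carried the same ISRE letters (TTTCACTTTC) as Gbp2. A match of letters does not show that a factor binds there, and binding was not measured.

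**Figure D1:**
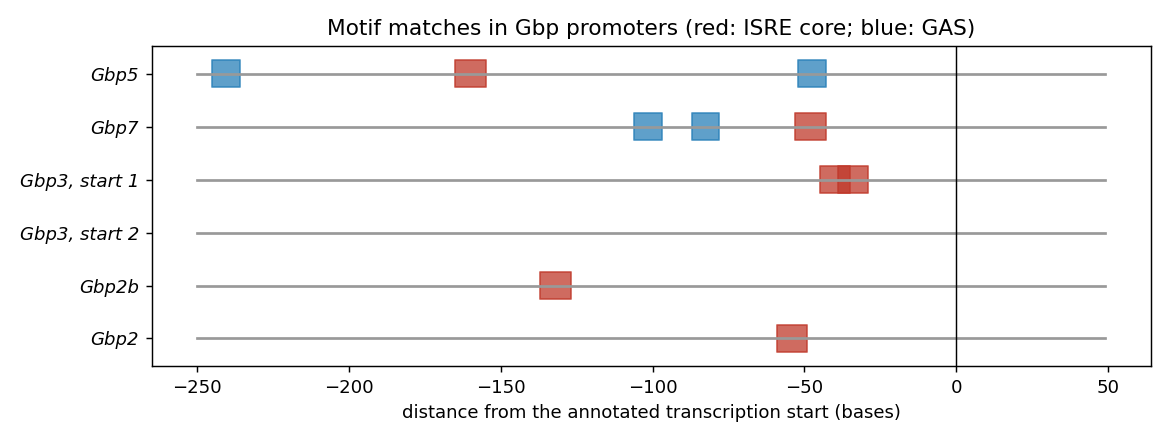
Matches to the ISRE core (red) and the GAS (blue) along the promoters of the 5 Gbp genes of chromosome 3, 1 line per annotated start, with the distance from that start in bases on the x axis. Every gene has a red block upstream of its start, at -165 in Gbp5 and -59 in Gbp2, and blue blocks appear in Gbp5 and Gbp7.

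Most Gbp probe sets were higher in icilin-treated than in vehicle-treated T cells. In 10 of 11 every icilin array lay above every vehicle array, a separation seen in 10.8% of all probe sets upward and in 8.44% downward. The study's limits, a change of 1.5-fold or more at a false discovery rate under 0.1, applied here to limma's adjusted p over all 41345 probe sets, were passed by 6 Gbp probe sets, all higher, against 0.237% of all probe sets called higher and 0.629% called lower. With no fold limit 7 passed, again all higher, against 0.52% of all probe sets. The 6 were those of Gbp10, Gbp4, Gbp11, Gbp8, Gbp9 and the shared Gbp2 and Gbp2b probe set, with folds between 1.62 and 2.50. The median log2 fold change of the 11 was 0.70. Because the family was picked on this contrast, these counts are not independent evidence of a direction.

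With 1 array left out the number past both limits was 1 without icilin replicate 1 or icilin replicate 2, 2 without icilin replicate 3, vehicle replicate 2 or vehicle replicate 3, and 5 without vehicle replicate 1. Calls in either direction over all 41345 probe sets also fell in these fits, from 358 with all arrays to between 109 and 207. Gbp10 passed in all 6 of these fits, and Gbp11 in 0 of them.

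The chromosome 5 cluster held 5 of the 6 probe sets past both limits. Gbp10, which encodes a GTPase of the family, had the largest difference of the 11. Its log2 values were 9.97, 10.01 and 10.10 in icilin arrays, against 8.77, 8.65 and 8.68 in vehicle arrays. The lowest icilin array stood 1.19 above the highest vehicle array, and the log2 fold change was 1.32 ± 0.08 (SE), or 2.50-fold. It ranked 22 among all 41345 probe sets by size of rise.

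Gbp4, a neighbour of Gbp10 in this cluster, had log2 values of 8.74, 8.56 and 8.72 in icilin arrays, against 7.44, 7.83 and 7.72 in vehicle arrays. The groups did not overlap, and the log2 fold change was 1.01 ± 0.12 (SE), or 2.01-fold. Among the vehicle arrays replicate 1 was the lowest.

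Gbp8 and Gbp9 lie next to each other at 1 end of the cluster. Gbp8 had log2 values of 8.41, 8.37 and 8.24 in icilin arrays, against 7.48, 7.59 and 7.64 in vehicle arrays, a log2 fold change of 0.77 ± 0.08 (SE). Gbp9 had log2 values of 7.77, 7.94 and 7.91 in icilin arrays, against 7.33, 7.18 and 7.02 in vehicle arrays, a log2 fold change of 0.70 ± 0.10 (SE). In both genes the icilin arrays were all above the vehicle arrays.

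At the other end of the cluster the signals were dim. Gbp11, which RefSeq annotates as a transcribed pseudogene, had log2 values of 3.87, 3.70 and 3.49 in icilin arrays, against 2.75, 3.06 and 2.77 in vehicle arrays, a log2 fold change of 0.83 ± 0.13 (SE). Its mean over all arrays was at percentile 31.2 of all probe sets. Gbp6 stood at percentile 16.8, with log2 values of 2.82, 2.54 and 2.53 in icilin arrays, against 2.10, 2.22 and 2.50 in vehicle arrays. The nearest arrays of the 2 groups were 0.03 apart, and the log2 fold change of 0.35 ± 0.14 (SE) passed neither limit. Differences of such dim probe sets are compressed by background, and whether signal of the brighter, related Gbp genes reaches them through cross-hybridisation was not tested.

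In the chromosome 3 cluster, the probe set shared by Gbp2 and Gbp2b was the member past both limits. Gbp2 is an antiparasitic member of the family that in mice restricts Toxoplasma. The log2 values of the shared probe set were 10.82, 10.82 and 10.83 in icilin arrays, against 10.22, 10.05 and 9.97 in vehicle arrays. The icilin arrays lay closer together (SD 0.01) than the vehicle arrays (SD 0.13), the groups did not overlap, and the log2 fold change was 0.75 ± 0.09 (SE), or 1.68-fold. The probe set of Gbp2b alone, the gene formerly called Gbp1, behaved differently. It read 4.09, 3.99 and 4.20 in icilin arrays, against 4.27, 4.21 and 4.08 in vehicle arrays. These values overlapped, with a log2 fold change of -0.10 ± 0.09 (SE), and lay at percentile 48.0 of all probe sets.

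Gbp5, which in mice promotes inflammasome activation, had log2 values of 8.69, 8.59 and 8.72 in icilin arrays, against 8.28, 8.23 and 8.21 in vehicle arrays. The groups were separate, and the log2 fold change of 0.43 ± 0.07 (SE) met the limit on the adjusted p but not that of 1.5-fold. Gbp7 had 9.15, 9.33 and 9.33 in icilin arrays, against 8.74, 8.90 and 8.65 in vehicle arrays, a log2 fold change of 0.51 ± 0.10 (SE). Gbp3 had 5.76, 5.77 and 5.88 in icilin arrays, against 5.33, 5.04 and 5.39 in vehicle arrays, a log2 fold change of 0.56 ± 0.11 (SE). For both genes the groups did not overlap and neither limit was passed.

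**Figure D2:**
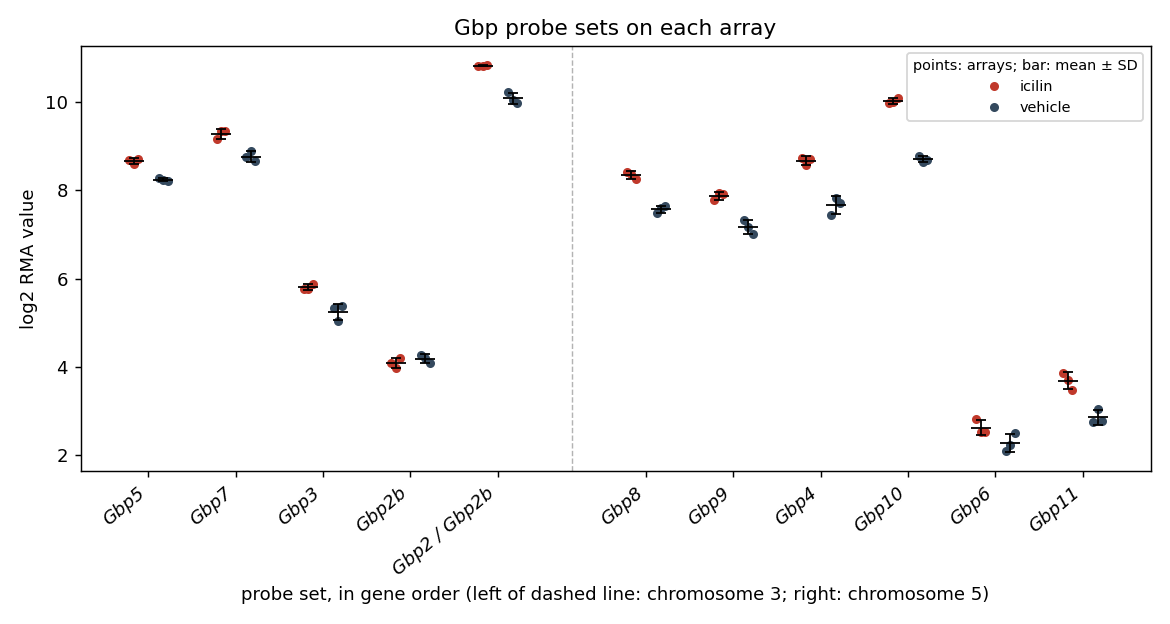
Log2 RMA value of each Gbp probe set (y axis) on the 3 icilin arrays (red) and the 3 vehicle arrays (dark blue), with the mean and SD as bars and the probe sets in gene order along the x axis. The red points of 10 probe sets lie above all blue ones, most widely in Gbp10 (9.97 to 10.10 against 8.65 to 8.77), and those of Gbp2b overlap.

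Set side by side, the clusters differed in the size of the mean difference. Averaged over its 6 probe sets, the chromosome 5 cluster had log2 values of 6.83 to 6.93 on icilin arrays, against 5.98 to 6.09 on vehicle arrays, a mean log2 fold change of 0.83. The 5 chromosome 3 probe sets averaged 7.70 to 7.79 on icilin arrays, against 7.26 to 7.37 on vehicle arrays, a mean log2 fold change of 0.43. Medians were 0.80 on chromosome 5 and 0.51 on chromosome 3. Members were known to differ when the family was chosen, so the difference between the clusters is given without a test.

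Genes that flank the clusters were read in the same fit, 5 protein-coding genes on each side of each cluster. Of these 20 genes, 1 passed both limits, the transcriptional regulator gene Lmo4 near the chromosome 3 cluster, with 7.49, 7.35 and 7.45 in icilin arrays, against 6.62, 6.77 and 6.63 in vehicle arrays. Its log2 fold change was 0.75 ± 0.08 (SE; limma adjusted p = 0.0219), and it no longer passed when icilin replicate 1, vehicle replicate 3 or icilin replicate 3 was left out (limma adjusted p 0.0876 to 0.113 over all 6 fits with 1 array left out). The other flanking genes given here were named after their values were seen. Kyat3, Gtf2b and Pkn2 lie between Lmo4 and the Gbp genes and had log2 fold changes of 0.09, 0.00 and 0.10. The median of the 20 was 0.08, with 8 separated upward and 0 downward, against 10.8% and 8.44% of all probe sets. Directly beside the chromosome 5 cluster, the transporter gene Abcg3 on 1 side had a log2 fold change of 0.38 ± 0.08 (SE; limma adjusted p = 0.133). On the other side, the volume-regulated anion channel gene Lrrc8b had 0.36 ± 0.07 (SE; limma adjusted p = 0.0981), short of 1.5-fold. The zinc finger gene Zfp951, next to Abcg3, had a log2 fold change of 0.72 ± 0.16 (SE; limma adjusted p = 0.142).

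**Figure D3:**
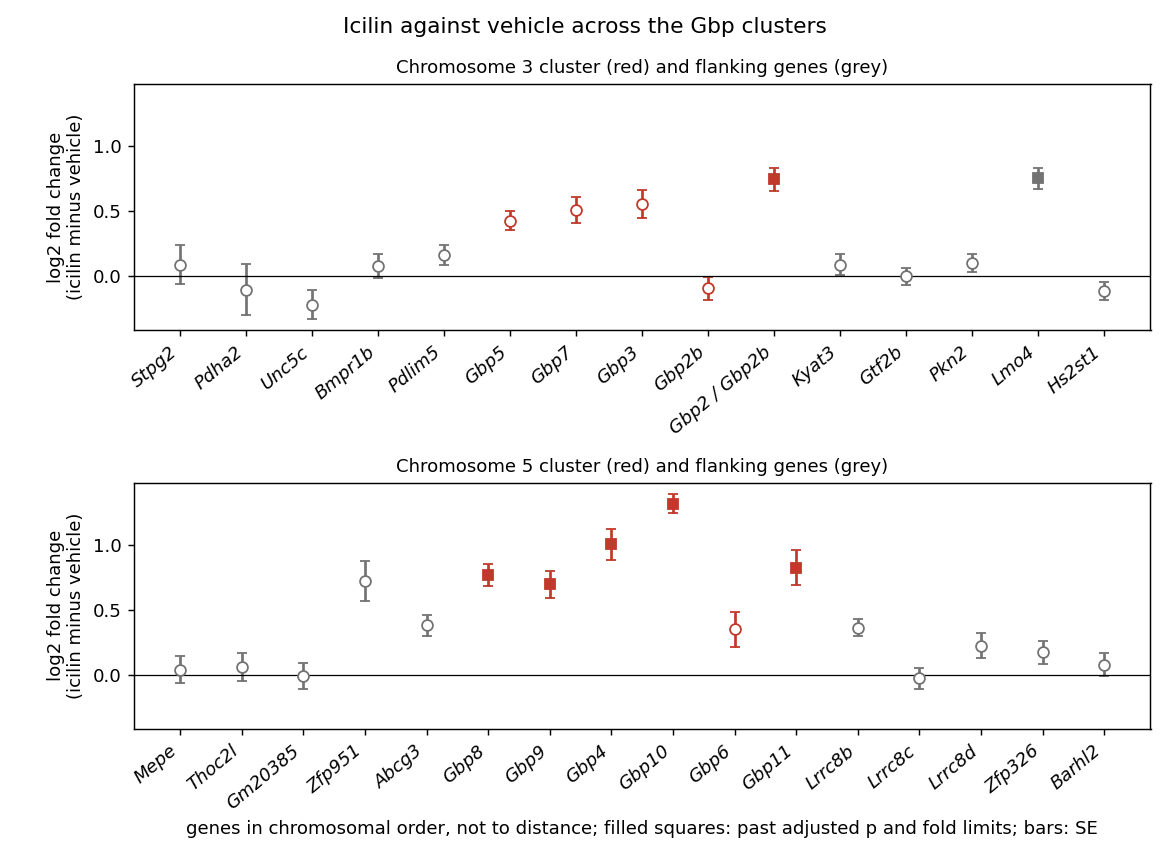
Log2 fold change, icilin minus vehicle (y axis, bars are SE), of the Gbp probe sets (red) and of 5 flanking protein-coding genes on each side (grey) in chromosomal order along the x axis, chromosome 3 above and chromosome 5 below. Filled squares passed both limits. The red points lie between 0.35 and 1.32 except for Gbp2b at -0.10, and the highest grey points are Lmo4 at 0.75 and Zfp951 at 0.72.

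The other families of interferon-inducible GTPases were the related list with most calls. Of 12 listed genes, 8 had a probe set with a single symbol, and Tgtp1, Tgtp2, Ifi47 and Gvin1 had none. Of the 8, 4 were called higher, against 0.237% of all probe sets, and 4 did not pass both limits. The median log2 fold change of the 8 was 0.59, against 0.01 over all probe sets. Iigp1, an immunity-related GTPase that disrupts parasite vacuoles, had 10.03, 10.08 and 9.98 in icilin arrays, against 9.17, 9.19 and 9.04 in vehicle arrays (log2 fold change 0.90 ± 0.08, SE; limma adjusted p = 0.0106). Irgm1, a regulatory member of that family, rose by 0.84 ± 0.09 (SE; limma adjusted p = 0.0219). Gm4951 rose by 1.24 ± 0.15 (SE; limma adjusted p = 0.0305) and Gm12250 by 0.64 ± 0.07 (SE; limma adjusted p = 0.0263). With no fold limit 6 of the 8 passed the adjusted p, all higher, against 0.52% of all probe sets. The 2 additional ones, named after their values were seen, were Irgm2 (0.55 ± 0.09, SE; limma adjusted p = 0.0792) and Igtp (0.49 ± 0.07, SE; limma adjusted p = 0.0454). The antiviral GTPase genes Mx1 and Mx2, of the same dynamin superfamily and named after their values were seen, read 0.20 ± 0.10 and 0.08 ± 0.17 (SE) and did not pass. With 1 array left out, 1 of the 8 passed without icilin replicate 1, vehicle replicate 2 or vehicle replicate 3, 2 passed without icilin replicate 2 or icilin replicate 3, and 4 without vehicle replicate 1. Iigp1 passed in all 6 of these fits (log2 fold change 0.85 to 0.93, limma adjusted p 0.0561 to 0.0772).

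Genes that carry the interferon gamma signal were without a call. Limma and SAM, the study's own method, each called 0 of 14 measured genes past both limits, and the median log2 fold change was 0.07. An unadjusted p under 0.05 was reached by 4 higher and 2 lower genes. The share of all probe sets at that p was not counted. Such counts, here and for the lists and markers below, therefore show no excess by themselves. The groups were separated upward in 5 and downward in 3 of the 14, against 10.8% and 8.44% of all probe sets. These shares include dim probe sets, whereas each list gene stands by its brightest. Of the 20673 probe sets brighter than the median, 3229 were separated upward and 2488 downward, which are larger shares. The lists below and the flanking genes above are also set against the shares of all probe sets. With no fold limit, 2 passed the adjusted p higher, against 0.52% of all probe sets, and 1 lower. The higher genes were Irf1, the transcription factor that binds ISRE-like elements (0.48 ± 0.07, SE; limma adjusted p = 0.0531), and Nlrc5, a transactivator of MHC class I genes (0.54 ± 0.10, SE; limma adjusted p = 0.0929). The lower gene was Jak2, which encodes a receptor-associated kinase (-0.37 ± 0.06, SE; limma adjusted p = 0.0846). Nlrc5 and Jak2 were named after their values were seen. Irf1 had 9.50, 9.38 and 9.40 in icilin arrays, against 8.97, 8.95 and 8.90 in vehicle arrays. The cytokine gene Ifng itself, also named after its value was seen, had 5.42, 5.60 and 5.48 in icilin arrays, against 6.00, 5.63 and 5.84 in vehicle arrays (-0.33 ± 0.11, SE; limma adjusted p = 0.340).

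Most other interferon response genes did not pass both limits. Of all probe sets, 0.237% were called higher and 0.629% lower. Of 19 measured interferon gamma response genes such as antigen-processing and chemokine genes, both tools again called 0, with a median of 0.07. An unadjusted p under 0.05 was reached by 3 higher and 0 lower genes. The groups were separated upward in 6 and downward in 1 of the 19, against 10.8% and 8.44% of all probe sets. The smallest p was that of the tryptophanyl-tRNA synthetase gene Wars (0.26 ± 0.07, SE; limma adjusted p = 0.194). Of 20 type I interferon response genes, the RNA sensor genes Ifih1 (-0.67 ± 0.10, SE; limma adjusted p = 0.0608) and Dhx58 (-0.66 ± 0.10, SE; limma adjusted p = 0.0599) fell, 18 did not pass, and the median was 0.04. An unadjusted p under 0.05 was reached by 6 higher and 2 lower genes of this list. Its groups were separated upward in 6 and downward in 3 of the 20 genes. The nucleic acid sensor gene Zbp1, named after its value was seen, passed the adjusted p but not 1.5-fold (0.44 ± 0.07, SE; limma adjusted p = 0.0608). The calls of Ifih1 and Dhx58 held in 0 of the 6 fits with 1 array left out (limma adjusted p 0.117 to 0.222). Further lists concern what becomes of Gbp proteins. Prenyl groups anchor some of them in membranes, and limma and SAM called 0 of 8 prenylation enzyme genes (median 0.05, unadjusted p under 0.05 for 1 higher and 1 lower gene), with the protease gene Rce1 at 0.21 ± 0.07 (SE; limma adjusted p = 0.341). For 19 genes of the autophagy conjugation machinery, which directs Gbp proteins to vacuoles, and of inflammasomes, both tools also called 0 (median 0.02, unadjusted p under 0.05 for 3 higher and 1 lower gene), with the inflammatory caspase gene Casp1 at 0.38 ± 0.09 (SE; limma adjusted p = 0.171).

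**Figure D4:**
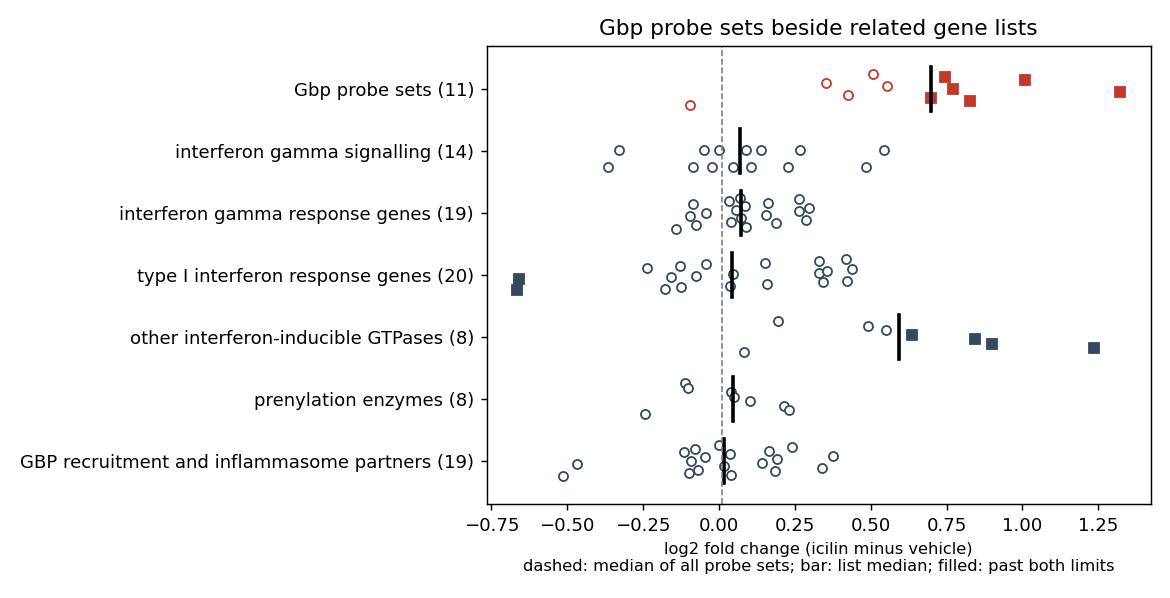
Log2 fold change, icilin minus vehicle (x axis), of each Gbp probe set (red) and each measured gene of 6 related lists (dark blue), with the list median as a bar and the median of all probe sets, 0.01, as a dashed line. The Gbp probe sets and the other interferon-inducible GTPases have medians of 0.70 and 0.59, and the medians of the other 5 lists lie between 0.02 and 0.07.

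Over the 6 arrays, 5 genes outside the family had the profile most like that of Gbp10 among 4053 candidate probe sets. Slc25a33, a mitochondrial nucleotide carrier gene, had a Pearson r of 0.999, and Cyb5r1 an r of 0.999. The membrane protein genes Ms4a4b and Ms4a6b had r of 0.998 and 0.996, and Tnfrsf26, a decoy receptor gene, had 0.997. Within the family r with Gbp10 was 0.988 for the shared Gbp2 and Gbp2b probe set, 0.986 for Gbp5 and -0.45 for Gbp2b. All these values rest on 6 arrays that share the split into icilin and vehicle, which raises r for genes that differ in the same direction as Gbp10.

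The cell type of the samples was read from marker genes, since macrophages and B cells also express Gbp genes. Over 8 measured CD4 T cell markers the mean log2 value was 10.46 to 10.52 on icilin arrays, against 10.43 to 10.50 on vehicle arrays, with Cd4 and Cd3e among them. Cd247 and Lck had no probe set with a single symbol. Both tools called 0 of the 8, and 1 higher and 0 lower genes reached an unadjusted p under 0.05. The higher gene, named after its value was seen, was Cd28 (0.34 ± 0.08, SE; limma adjusted p = 0.152). Groups were separated upward in 1 and downward in 2, against 10.8% and 8.44% of all probe sets. For 8 macrophage and monocyte markers the mean was 3.59 to 3.69 on icilin arrays, against 3.62 to 3.67 on vehicle arrays, with 0 past both limits by limma and by SAM, and an unadjusted p under 0.05 for 1 higher and 2 lower genes. Dendritic cell markers (6 genes) averaged 4.66 to 4.72 on icilin arrays, against 4.64 to 4.74 on vehicle arrays, and markers of NK and CD8 T cells (6 genes) 3.78 to 3.89 on icilin arrays, against 3.86 to 3.98 on vehicle arrays. Both tools called 0 genes of either list. An unadjusted p under 0.05 was reached by 1 higher and 0 lower dendritic cell markers, and by 1 higher and 2 lower NK and CD8 T cell markers. The higher ones, named after their values were seen, were Batf3 (0.47 ± 0.08, SE; limma adjusted p = 0.0859) and Cd8b1 (0.39 ± 0.13, SE; limma adjusted p = 0.324). The lower ones were Klrb1c and Klrd1. By mean over all arrays, Batf3 stood at percentile 89.4 of all probe sets. The other measured dendritic cell markers stood between percentiles 38.8 and 48.3, so the list mean leans on Batf3. Of 6 B cell markers 1 passed both limits, Ms4a1 (1.01 ± 0.10, SE; limma adjusted p = 0.0199), which no longer passed when icilin replicate 2, vehicle replicate 2 or icilin replicate 3 was left out (limma adjusted p 0.0457 to 0.111 over the 6 fits), and the list mean was 4.64 to 4.69 on icilin arrays, against 4.39 to 4.52 on vehicle arrays. The list's median log2 fold change was 0.09, and the 5 other B cell markers lay between -0.12 (Cr2) and 0.21 (Pax5). The part of B cells in the Gbp values was not tested. In such bulk samples, a change in the number of cells that express a gene and a change in RNA per cell cannot be told apart.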

How the data were processed

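The deposited table holds log2 expression values that the authors made by RMA (background correction, normalization between arrays, summarising of probes), per the series design text and the submitters' processing notes. RMA aligns the arrays, so a shift common to most genes would not show. The table has 41345 probe sets, of which 23521 carry 1 gene symbol, 1814 several and 16010 none. The array annotation's build is not given in the sources used here, so RefSeq (GRCm38.p6) served for gene order and promoters, and all 11 Gbp probe sets matched it.

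In R 4.3.3, limma 3.58.1 (linear fits with empirical Bayes variances) compared icilin with vehicle over all probe sets, two-sided, with Benjamini-Hochberg adjustment. Called means an adjusted p under 0.1 and at least 1.5-fold, the study's limits. Errors are SE from limma. The replicate numbers were not used as pairs. The main fit therefore leaves out that both groups came from the same 3 mice. Nothing says whether the cells of 1 mouse were cultured more than once per treatment. The p-values thus set the mean difference against the spread between these arrays. limma and SAM were tested on simulated data. Members and lists were chosen with earlier results of these data known. For lists, the brightest single-symbol probe set stood for a gene. Up to 4 called genes of each list by size of change were named, or the gene with the smallest p where 0 were called, with every called flanking gene and the 5 genes most correlated with Gbp10 that are not Gbp and vary by about 1.5-fold or more over the arrays. Alternatives were a replicate block, an intensity trend with robust variances, median centring, quantile normalization, leaving out dim probe sets, 1 probe set per gene, leaving out each array, SAM (20 permutations) and other limits. Figures were made with Python 3.11.15 and matplotlib 3.10.9.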

Additional observations from a re-analysis of the deposited data

How the results depend on the processing

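The log2 fold change of each Gbp probe set kept its sign under every alternative in which it was fitted. The number of Gbp probe sets past both limits, 6 of 11 in the comparison above, was also 6 with an intensity trend and robust variances, with median centring and with quantile normalization. It was 5 of 8 without dim probe sets, 5 of 10 with 1 probe set per gene, 4 by SAM (without Gbp9 and Gbp11), 7 with no fold limit and 2 (Gbp10 and Gbp4) at an adjusted p under 0.05 and 2-fold. Leaving out each array gave 1 to 5, while calls over all probe sets fell from 358 to between 109 and 207. With the replicate number as a block the count was 0, as it was for all 41345 probe sets. The block leaves fewer residual degrees of freedom, and whether this lowered the counts was not tested. Deviations of arrays with the same number correlated at -0.02 to 0.03, so the numbers could not be shown to pair the arrays, although both groups came from the same 3 mice. The number of Gbp probe sets called lower was 0 under all of these.

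Over all 6 related lists, 4 genes were called higher and 2 lower. These counts were 0 and 0 with the replicate block, 9 and 3 with no fold limit, and 1 to 4 and 0 to 0 with 1 array left out. Of the 20 flanking genes, 1 was called higher, 2 with an intensity trend and robust variances, with 1 probe set per gene or with no fold limit, 0 with the replicate block or at 2-fold, and 0 to 1 with 1 array left out, settings applied to these genes after seeing the data. With 1 array left out, the median log2 fold change of the prenylation list ran between -0.019 and 0.054, below 0 without vehicle replicate 1. That of the recruitment and inflammasome list ran between -0.054 and 0.053, below 0 without icilin replicate 3 (-0.017) and without vehicle replicate 3. The cause of these changes was not tested.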
